A study of Xenopus laevis with 8 samples.

Results

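The genes described are the frog pou5f3 and tdgf1 genes, 2 small families tied to the uncommitted state of early embryonic cells. Every probe set whose single symbol begins with pou5f3 or tdgf1 was taken, which gave 8 of 32539 probe sets and 6 of 11303 named genes: pou5f3.1.L, pou5f3.2.L and pou5f3.3.L, and tdgf1.1.L, tdgf1.2.S and tdgf1.3.L. Xenopus laevis has a long and a short subgenome, and the suffixes .L and .S say on which a copy lies. These families were chosen because several of their genes had higher signals in caps with the lrig3 morpholino, so values that involve those caps are given below as a description, with no test.

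RNA came from animal caps of Xenopus laevis, a sheet of prospective ectoderm that becomes epidermis in plain culture. Injection was at the 2-cell stage and explants were taken at stage 9. The series text names RNA extraction with the stage 9 dissection and also culture to stage 15 before collection. Stage 15 was taken here as the collection stage. Each of 8 samples was hybridised to its own Affymetrix array. The groups, with 2 arrays each, were uninjected explants, explants given Chordin mRNA, explants given Chordin and Wnt3a mRNAs, and explants given both mRNAs and the Lrig3 morpholino (Lrig3MO). The morpholino group thus carried both messages too, and none of the 4 groups held a control morpholino. The labels do not say how many caps were pooled or whether the 2 samples of a group came from separate embryo batches, so the p-values speak of the spread between the arrays at hand, and part or all of that spread may be technical.

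Pou5f3 proteins are POU-domain transcription factors, the frog relatives of mammalian Oct4. In Xenopus they hold back the differentiation of blastula and gastrula cells. The older names of the copies are Oct91 for pou5f3.1, Oct25 for pou5f3.2 and Oct60 for pou5f3.3, and Oct60 is known mainly as a maternal message of oocytes and early embryos. Tdgf1 proteins, also called Cripto, are membrane-anchored proteins of the EGF-CFC family that serve as co-receptors for Nodal ligands. Chordin blocks bone morphogenetic proteins (BMPs) and turns cap cells toward neural fate, and Wnt3a added to it turns them toward neural crest. Lrig3 belongs to a small family of membrane proteins that carry leucine-rich repeats and immunoglobulin-like domains outside the cell.

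In the RefSeq annotation of Xenopus_laevis_v10.1 the 3 pou5f3 genes of the long subgenome are direct neighbours, with 0 protein-coding genes between pou5f3.3.L and pou5f3.2.L and 0 between pou5f3.2.L and pou5f3.1.L. The tdgf1 copies form a similar row, in which tdgf1.2.L lies between tdgf1.3.L and tdgf1.1.L with 0 other protein-coding genes on either side. Neighbouring copies of a gene and their counterparts on the short subgenome are alike in sequence, and how far the probe sets tell them apart was not tested. The short-subgenome copies of pou5f3 and tdgf1.2.L itself were not analysed here.

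The values are linear signals scaled by the authors so that the trimmed mean of every array was near 500.1, with array medians between 95.6 and 114. Background was taken, array by array, as the highest of 23 negative control probe sets, and lay between 19.5 and 30.8. A probe set was tested only if on at least 2 arrays it was brighter than 40% of all probe sets there (levels of 48.4 to 60.7), and 22000 passed. On both uninjected arrays 16 of 16 epidermal, 12 of 14 neural plate and 7 of 12 neural crest markers were above background. Of 11 mesoderm markers 7 were at background on both. Of all probe sets 68.9% and 71.9% were above background on uninjected replicates 1 and 2, so such counts alone do not mark a tissue. Summed uninjected signals, which weigh bright genes most, were 170863 and 199417 for epidermal, 2676 to 2935 for neural plate and 1499 to 1998 for neural crest markers. In mesoderm markers 1 library stood apart within its group. Morpholino replicate 1 had signals of 1835 for the mesoderm gene tbxt.L, 1709 for the muscle actin gene actc1.L and 385 for tbx6.L, against 10.5, 32.4 and 10.3 on morpholino replicate 2. Some epidermal markers also differed within groups. On replicates 1 and 2 the keratin gene krt12.4.S was at 10613 and 857 with chordin and wnt3a, and at 2161 and 18245 with the morpholino. Changes are log2 differences of signal plus a pseudocount of 5.22, which understate the change of dim genes.

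Of the 8 probe sets, 4 passed the filter: the brighter one of pou5f3.1.L and those of pou5f3.2.L, pou5f3.3.L and tdgf1.3.L. That of pou5f3.3.L passed only through the 2 morpholino arrays. The 4 kept probe sets fell into 2 kinds of profile. Pou5f3.1.L and pou5f3.2.L were high in uninjected caps, low in chordin caps and high again in morpholino caps. Pou5f3.3.L and tdgf1.3.L were near background in all groups except the morpholino caps.

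**Figure D1:**
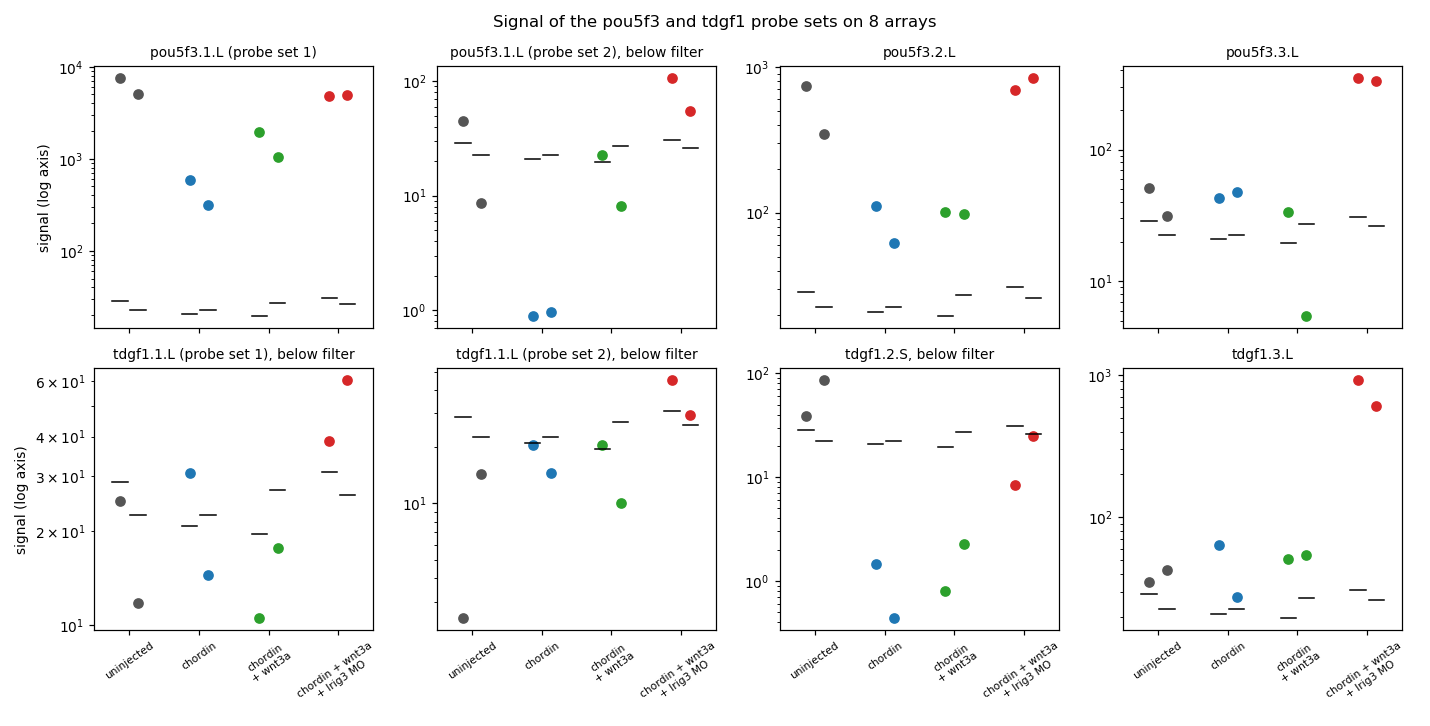
Signal of each of the 8 probe sets on each of the 8 arrays (log axis), by group, with replicate 1 on the left and replicate 2 on the right of each pair of points and a short black line at the background of that array. The bright pou5f3.1.L probe set spans 316 to 7492 and is lowest on the chordin arrays, while tdgf1.3.L lies between 27.6 and 64.0 on 6 arrays and at 604 and 918 on the morpholino arrays.

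Pou5f3.1.L, or Oct91, is a zygotic member of the family. Its brighter probe set had signals of 7492 and 5086 in uninjected caps, 587 and 316 with chordin, 1945 and 1050 with chordin and wnt3a, and 4772 and 4960 with the morpholino added. Chordin caps were lowest on every array, chordin and wnt3a caps came next, and the morpholino and uninjected caps were highest and close to each other. Morpholino signals lay below both uninjected ones, by a mean log2 difference of -0.34, beside a distance of 0.28 of each uninjected array from their own mean. The groups did not overlap at any step of this order, but the higher morpholino signal, 4960, lay close to the lower uninjected one, 5086.

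The dimmer probe set of pou5f3.1.L lay near background. It had signals of 44.4 and 8.67 in uninjected caps, 0.889 and 0.973 with chordin, 22.7 and 8.07 with chordin and wnt3a, and 106 and 54.9 with the morpholino. Only the morpholino group was above background on both of its arrays, the chordin group was at background on both, and the uninjected group overlapped the chordin and wnt3a group. This probe set did not pass the filter.

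Pou5f3.2.L, or Oct25, is the gastrula-stage factor known to restrain germ-layer signals. Its signals were 733 and 347 in uninjected caps, 112 and 62.2 with chordin, 101 and 97.9 with chordin and wnt3a, and 696 and 835 with the morpholino. The chordin group and the chordin and wnt3a group overlapped, as did the uninjected and morpholino groups, so the order had 2 levels. All 8 signals were above background.

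Pou5f3.3.L, or Oct60, had signals of 51.1 and 31.6 in uninjected caps, 43.0 and 47.3 with chordin, and 33.5 and 5.45 with chordin and wnt3a. With the morpholino they were 347 and 333. The uninjected and chordin groups overlapped, as did the uninjected group and the chordin and wnt3a group, and the morpholino arrays stood above all 6 others. One chordin and wnt3a array, replicate 2, was below background.

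Tdgf1.3.L, the Cripto gene first described in frogs as FRL-1, had signals of 35.2 and 42.4 in uninjected caps, 64.0 and 27.6 with chordin, and 51.1 and 54.0 with chordin and wnt3a. With the morpholino they were 918 and 604. All 8 were above background, the uninjected and chordin groups overlapped, the chordin group and the chordin and wnt3a group overlapped, and the morpholino arrays stood above all others.

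The other Cripto copies were dim and did not pass the filter. One probe set of tdgf1.1.L had signals of 24.9 and 11.7 in uninjected caps, 30.7 and 14.5 with chordin, 10.5 and 17.6 with chordin and wnt3a, and 38.8 and 60.5 with the morpholino. The second tdgf1.1.L probe set had signals of 2.46 and 14.3, 20.4 and 14.5, 20.4 and 9.99, and 45.0 and 29.4 in the same groups. On both probe sets the morpholino group was the only one above background on both arrays. Tdgf1.2.S behaved otherwise, with 38.7 and 85.7 in uninjected caps, 1.46 and 0.438 with chordin, 0.794 and 2.28 with chordin and wnt3a, and 8.32 and 24.7 with the morpholino. It was above background only on the 2 uninjected arrays.

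Chordin against uninjected caps asks what a block of BMP signals does to cap cells. It holds no morpholino array, but the genes were chosen with earlier results of these data known. Its tests were therefore not shown to be independent of that choice, and the fit takes its spread from all 8 arrays. Pou5f3.1.L fell by 3.82 on the log2 scale (SE 0.39, limma adjusted p = 0.00153), a signal 14.2-fold lower with chordin. Pou5f3.2.L fell by 2.52 on the log2 scale (SE 0.41, limma adjusted p = 0.00610), 5.75-fold lower. In both genes all chordin signals lay below all uninjected signals. With 2 arrays on each side the smallest p an exact permutation test allows is 0.333. Such separation, here, in the signals above and in the comparisons below, is therefore weak evidence alone. The share of all kept probe sets that separate in this way is not given here. Limma called 29.3% of the kept probe sets in this comparison, 17.6% as higher and 11.7% as lower, which is the background to these 2 calls. In a fit of the 4 uninjected and chordin arrays alone, chosen after seeing the data, both were called too (limma adjusted p = 0.00321 and 0.0156). Both calls held without each of the 8 arrays in turn, with log2 changes of -4.26 to -3.38 for pou5f3.1.L and -3.06 to -1.99 for pou5f3.2.L.

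Summed cell-type markers also differed between these groups, and such sums weigh bright genes most. Epidermal markers, of which 16 of 16 were above background on both uninjected arrays and 14 on both chordin arrays, summed to signals of 170863 and 199417 in uninjected caps and to between 101232 and 105031 with chordin. Not all of the epidermal markers fell. Cldn6.1.L rose from 1065 and 918 to 3710 and 2926, and the uninjected and chordin signals of cldn6.1.S and grhl3.L overlapped. Neural plate markers, 12 and 14 of 14 above background, summed to between 2676 and 2935 and to between 56018 and 62834. The part of this shift in the falls of pou5f3.1.L and pou5f3.2.L was not tested, and fewer cells of a type and less message per cell cannot be told apart in such bulk samples.

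Tdgf1.3.L did not pass in this comparison, with a log2 change of 0.12 (95% interval -0.84 to 1.08, limma adjusted p = 0.847), and it was too dim to be tested in the fit of 4 arrays. The interval leaves room for a rise of up to 1.08 log2 units, so equal levels were not shown. Pou5f3.3.L, kept only through the morpholino arrays, is given by its signals above, with no test. Tdgf1.2.S, which the filter left out, was at background on both chordin arrays and at least 2.36-fold lower there. With no filter it passed (limma adjusted p = 0.00585), and the dimmer pou5f3.1.L probe set did not (limma adjusted p = 0.0697).

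Wnt3a added to chordin is the step that makes neural crest, and it shares the chordin and wnt3a arrays with the comparison on which these genes were chosen, so its tests are not independent of that choice. The background here was 5.82% of kept probe sets called, 3.08% as higher and 2.74% as lower. Pou5f3.1.L, pou5f3.2.L and tdgf1.3.L did not pass. The log2 change of pou5f3.1.L was 1.72 (SE 0.39, limma adjusted p = 0.0536), with both signals above both chordin signals. With the replicate number as a block it passed (limma adjusted p = 0.0114), and it passed under spike-in scaling too (limma adjusted p = 0.0107). It did not pass with pseudocounts of 16 and 1, no filter, quantile normalization or eBayes without trend and robust (limma adjusted p = 0.0512 to 0.0768). With 1 array left out its log2 change lay between 1.27 and 2.16. Pou5f3.2.L had a log2 change of 0.24 (95% interval -0.72 to 1.2, limma adjusted p = 0.872) and tdgf1.3.L one of 0.28 (95% interval -0.68 to 1.23, limma adjusted p = 0.842). Pou5f3.3.L again has no test, and its signal of 5.45 on chordin and wnt3a replicate 2 was below the background of 27.1 on that array.

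**Figure D2:**
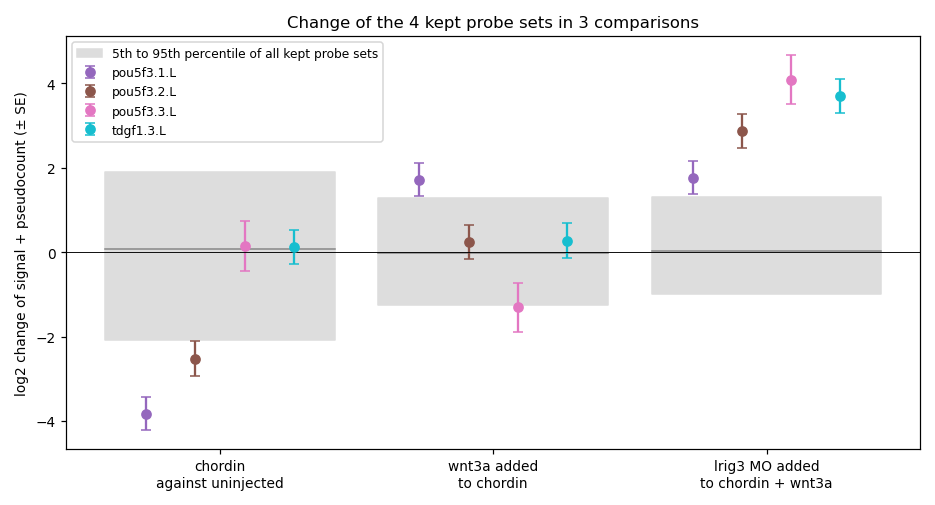
Log2 change of signal plus pseudocount (y axis, ± SE of the limma fit with 2 arrays per group) of the 4 kept probe sets in 3 comparisons (x axis), over grey bars from the 5th to the 95th percentile of all 22000 kept probe sets. Pou5f3.1.L and pou5f3.2.L lie at -3.82 and -2.52 with chordin, and the 4 values in the morpholino comparison, on which the genes were chosen, lie between 1.76 and 4.09.

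In the morpholino comparison, on which the genes were chosen, the morpholino signals of all 4 kept probe sets lay above those of chordin and wnt3a caps. This separation is a description and was not set against that of other probe sets. The log2 differences were 4.09 (SE 0.59) for pou5f3.3.L, 3.70 (SE 0.41) for tdgf1.3.L, 2.87 (SE 0.41) for pou5f3.2.L and 1.76 (SE 0.39) for pou5f3.1.L. As linear folds those of tdgf1.3.L, pou5f3.2.L and pou5f3.1.L were 13.0, 7.33 and 3.39. Only 1 of the 2 chordin and wnt3a arrays measured pou5f3.3.L above background, so no fold is given for it. Ranked by rise among the 22000 kept probe sets, pou5f3.3.L was at place 8, tdgf1.3.L at 20, pou5f3.2.L at 99 and pou5f3.1.L at 478. High places follow from how the genes were chosen, and pou5f3.3.L is ranked only because the morpholino arrays brought it through the filter. Over all kept probe sets limma called 4.9% in this comparison, 2.73% as higher and 2.16% as lower, from which nothing is read for genes picked on it. Of the dim probe sets, the first of tdgf1.1.L was at background in chordin and wnt3a caps and at least 1.90-fold higher with the morpholino. The dimmer pou5f3.1.L probe set and the second of tdgf1.1.L were above background on 1 of the 2 chordin and wnt3a arrays, and tdgf1.2.S was at background in both groups, so no fold is given for them.

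The spread between the 2 morpholino arrays is set here beside the mesoderm signal of replicate 1, whose part in these genes was not tested. The higher morpholino signal over the lower was 1.04 for pou5f3.1.L, 1.2 for pou5f3.2.L, 1.04 for pou5f3.3.L and 1.52 for tdgf1.3.L, while tbxt.L was 176 times and actc1.L 52.8 times higher on replicate 1. With morpholino replicate 2 alone the log2 differences against chordin and wnt3a caps were 4.06 for pou5f3.3.L, 3.4 for tdgf1.3.L, 3.00 for pou5f3.2.L and 1.79 for pou5f3.1.L. The chordin and wnt3a arrays mattered more for pou5f3.3.L, which differed by 3.16 from replicate 1 of that group alone, while its replicate 2 was at background. Endoderm markers summed to 512 and 584 in morpholino caps and 334 to 622 in chordin and wnt3a caps, and of the 11 measured 2 were at background on both morpholino arrays and 6 on both chordin and wnt3a arrays. Mesoderm markers, 3 of 11 above background on both arrays of each group, summed to between 3133 and 4399 in chordin and wnt3a caps. In morpholino caps they summed to between 5025 and 11823. Of these sums wnt8a.L gave 2449 and 4151 with chordin and wnt3a, and 4612 and 4777 with the morpholino. Neural plate and neural crest sums parted between the 2 groups, and epidermal sums overlapped. Neural plate markers, 13 of 14 above background on both arrays of each group, summed to between 21585 and 32248 in chordin and wnt3a caps and to between 63421 and 68351 in morpholino caps. Of these, otx2.L, otx2.S, cdh2.L, cdh2.S and ncam1.S overlapped between the 2 groups. Otx2.L had signals of 27.6 and 114 with chordin and wnt3a and 29.7 and 182 with the morpholino, against 4933 and 5992 with chordin alone. Neural crest markers, 12 of 12 above background in both groups, summed to between 55906 and 62548 and to between 17027 and 24230. Epidermal markers, 16 of 16 above background in both, summed to between 74385 and 132927 and to between 85758 and 112012. The part of these shifts in the signals of pou5f3 and tdgf1 genes was not tested.

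Against uninjected caps the genes parted. The morpholino mean of tdgf1.3.L was 4.1 log2 units above the uninjected mean and that of pou5f3.3.L 2.92 above it. Those of pou5f3.2.L and pou5f3.1.L differed from it by 0.59 and -0.34. Against chordin caps the differences were 3.98 for tdgf1.3.L, 3.48 for pou5f3.1.L, 3.11 for pou5f3.2.L and 2.78 for pou5f3.3.L.

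The scale of the morpholino arrays bears on these differences. The poly-A spike-in controls, transcripts that are added to the RNA before labelling, had geometric mean signals of 922 and 811 on the morpholino arrays and of 414 to 483 on the 4 chordin and chordin with wnt3a arrays. On the uninjected arrays they were 1002 and 542. Scaled to these controls, the median of all kept probe sets in the morpholino comparison moved from 0.03 to -0.90, and the split of calls from 601 higher and 476 lower to 146 and 5431. All 4 differences stayed positive under that scaling: 3.27 for pou5f3.3.L, 2.77 for tdgf1.3.L, 1.93 for pou5f3.2.L and 0.80 for pou5f3.1.L. In chordin against uninjected caps the median moved from 0.09 to 0.76 and the split from 3866 higher and 2579 lower to 5772 and 725, and the log2 changes of pou5f3.1.L and pou5f3.2.L were -3.13 and -1.85.

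**Figure D3:**
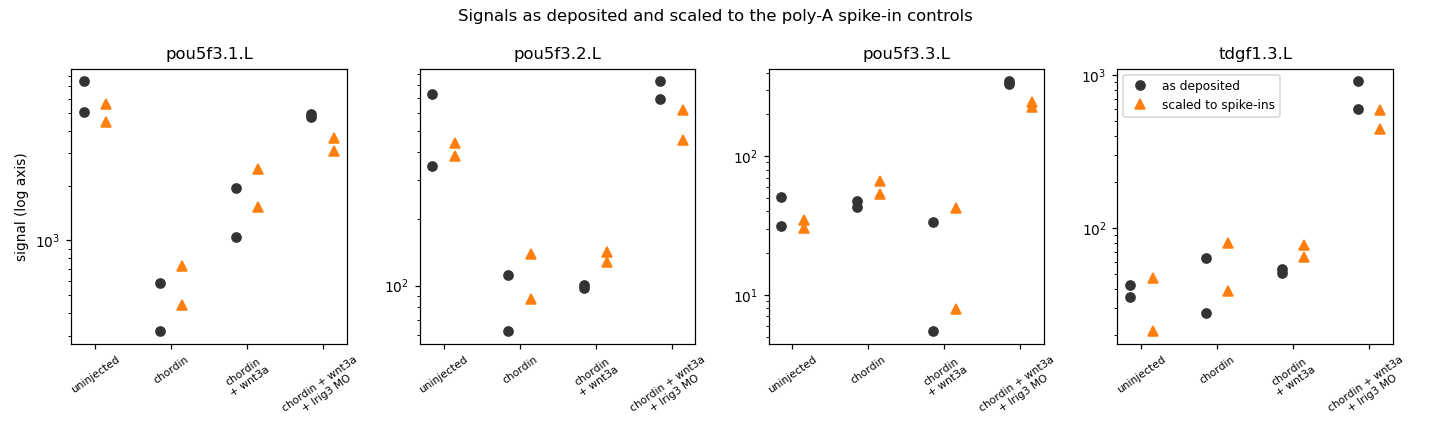
Signals of the 4 kept probe sets by group (log axis), as deposited (black circles) and after scaling by the poly-A spike-in signals (orange triangles), with 1 point per array. Under spike-in scaling tdgf1.3.L lies at 596 and 446 in morpholino caps and between 21.0 and 79.3 on the other 6 arrays, and pou5f3.1.L at 3096 and 3659 in morpholino caps against 2466 and 1517 with chordin and wnt3a.

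As a description over 8 arrays from 4 groups, the log2 signals of pou5f3.1.L and pou5f3.2.L correlated at r = 0.904 and those of pou5f3.3.L and tdgf1.3.L at r = 0.844. Across the 2 kinds of profile r lay between 0.434 and 0.694. These correlations rest largely on differences between groups.

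Genes with the most similar profiles were sought among 8819 other symbols by Pearson correlation of log2 signal over the 8 arrays. For pou5f3.1.L the 5 closest were tulp3.L, spcs3.L, dync1i2.S, atp2b1.L and gata6.S, at r = 0.968 to 0.977. Gata6.S, a GATA transcription factor gene, had signals of 146 and 73.7 in uninjected caps and was at background with chordin, at least 4.07-fold lower. Spcs3.L, a signal peptidase subunit gene, moved far less, from 4468 and 4604 to 3188 and 3217. For pou5f3.2.L the closest were cnpy3.L, ano10.L, LOC443608, nell1.S and ski.S, at r = 0.969 to 0.979. Ski.S, which encodes a co-repressor of Smad proteins, had signals of 556 and 412, 291 and 182, 264 and 308, and 521 and 661 in the order of the groups.

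For pou5f3.3.L the closest were tmem251.L, kcnk7.L, rab4b.L, mdh2.L and kdm3a.S, at r = 0.939 to 0.976. Mdh2.L, a mitochondrial malate dehydrogenase gene, had signals of 435 and 319 in morpholino caps against 54.1 to 143 elsewhere. For tdgf1.3.L they were ehd1.S, naa30.S, rgn.L, ddhd1.L and gabpa.L, at r = 0.978 to 0.989. Gabpa.L, which encodes an ETS-family factor, had signals of 333 and 257 in morpholino caps against 75.4 to 114 elsewhere. In both sets of 5 the morpholino signals lay above all others, which follows from how they were picked.

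**Figure D4:**
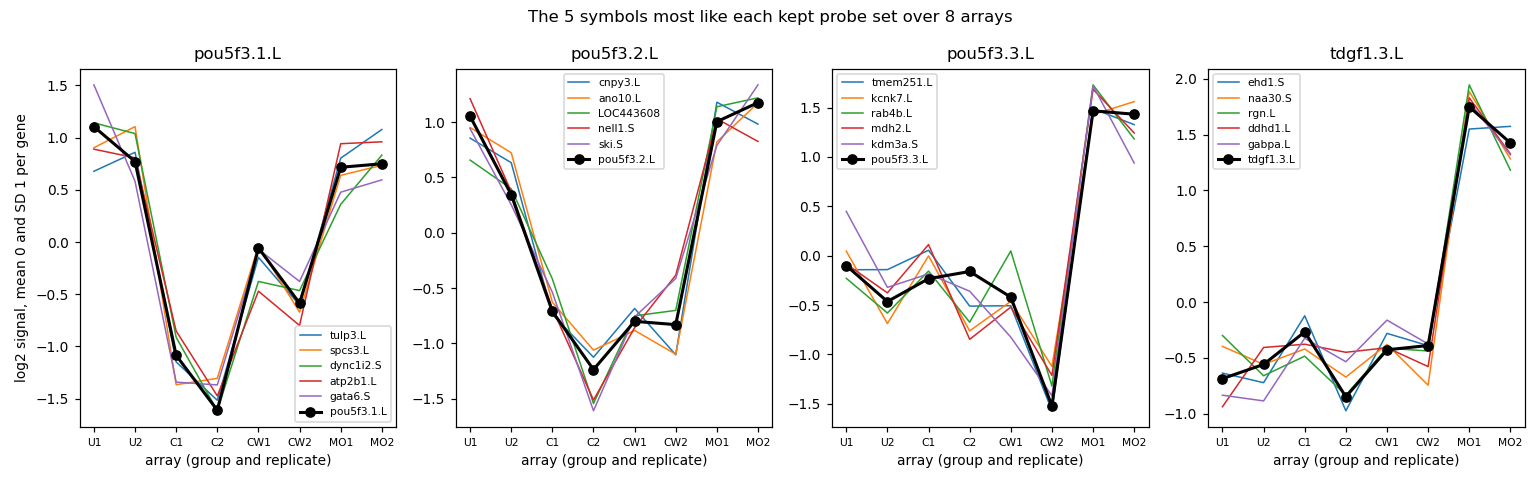
Log2 signal plus pseudocount of each kept probe set (black) and of its 5 most similar symbols (colours), each set to mean 0 and SD 1, over the 8 arrays (U uninjected, C chordin, CW chordin and wnt3a, MO morpholino added). The left panels show low chordin arrays and a return in morpholino caps, and the right panels show morpholino arrays above the other 6.

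The Nodal pathway was examined because Tdgf1 proteins act in it. This list and the later ones were drawn up with earlier results of these data known, so their shares describe and do not test. Of 48 listed symbols with a probe set, ligands, receptors, Smads, inhibitors and targets, 23 passed the filter, and nodal2.L was the only Nodal ligand among them. With chordin 5 rose and 3 fell, 21.7% and 13.0% of those tested, against 19.1% and 12.9% of all 8823 symbols, and the median log2 change was 0.10 against 0.07. Those that rose include sp5l.S, a zinc-finger gene of the Sp family, by 4.14, the organiser gene gsc.L, at least 3.84-fold from background, and the co-repressor gene tgif1.S by 1.82. The largest falls were smad7.L, an inhibitory Smad gene, at -2.94, furin.L, a convertase gene, at -2.85, and ski.S at -1.04. With 1 uninjected array left out 4 (replicate 1) or 3 (replicate 2) rose and 1 fell. Without chordin replicate 1, 3 rose and 2 fell, and without chordin replicate 2, 4 rose and 1 fell. The calls of gsc.L and furin.L were lost without any 1 of these 4 arrays.

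With wnt3a added, 1 Nodal pathway gene of 23 rose, smad7.L by 1.21, and 1 fell, gsc.L, at least 4.16-fold to background. The shares of all symbols were 3.32% and 3.07%, and the medians 0.30 and -0.01. With the replicate number as a block 4 rose and 1 fell. Without either uninjected array, without chordin replicate 1 or without either chordin and wnt3a array limma called 0 of them, with 4 to 6 at an unadjusted p under 0.05. Without chordin replicate 2 it called 1.

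In the morpholino comparison the Sp-family gene sp5l.S was the only gene of the Nodal pathway list called. It rose by 3.19 (limma adjusted p = 0.0238), from signals of 1171 and 912 to 13538 and 6591. Whether it answers to Nodal signals in these caps was not tested. The median of the 23 was 0.37 against 0.01 for all symbols, of which 2.62% rose and 2.66% fell. No receptor or Smad gene passed. The 5 receptor symbols had values from 0.02 for acvr2a.L to 1.08 for acvr2a.S, and the 4 Smad symbols from -0.02 for smad2.L to 0.75 for smad7.L. Nodal2.L had a value of -0.41 and the Nodal response factor foxh1.L one of 0.37. Sp5l.S was called without any 1 of the uninjected or chordin arrays, and 2 genes were called without morpholino replicate 2 or with the replicate block. Without morpholino replicate 1 or either chordin and wnt3a array limma called 0 of 23, with 4 or 5 at an unadjusted p under 0.05.

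Relatives of the pluripotency network were the second list, holding the ventx genes, whose products are often set beside mammalian Nanog, and soxB1, myc, klf, id, tfap2 and related genes. Of 35 symbols with a probe set 34 passed the filter. With chordin 14 rose and 7 fell, 41.2% and 20.6% against 19.1% and 12.9% of all symbols, with a median of 0.52 against 0.07. The neural progenitor gene sox2.L rose by 5.14 and mycn.S and mycn.L by 4.66 and 4.08, whereas pou5f3.1.L and pou5f3.2.L fell. The mycn.S and mycn.L probe sets share a target name, so they may not be separate measures. How far they tell the copies apart was not tested. Among those that fell were the BMP-responsive gene ventx2.1.S, at -3.62, ventx3.2.S, at least 3.68-fold to background, and the ectodermal regulator tfap2a.L, at -2.76. Without uninjected replicate 1 or chordin replicate 1, 9 rose and 4 fell, without uninjected replicate 2, 9 and 5, and without chordin replicate 2, 10 and 4. The ventx3.2.S call was lost without any 1 of the uninjected, chordin, or chordin and wnt3a arrays.

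With wnt3a added 4 of the 34 rose and 9 fell, 11.8% and 26.5% against 3.32% and 3.07%. The crest gene foxd3.L rose at least 257-fold from background, foxd3.S rose by 8.19 and tfap2a.L by 3.77. Among those that fell, sox2.L had a log2 change of -4.03, sox3.S one of -3.67 and sox3.L one of -3.59. Without chordin replicates 1 and 2, in that order, 4 and 4 rose and 3 and 4 fell. Without chordin and wnt3a replicate 2, 4 rose and 5 fell, and the median turned from -0.21 to 0.10.

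With the morpholino added to chordin and wnt3a, 5 of the 34 rose and 1 fell, 14.7% and 2.94% against 2.62% and 2.66%, with a median of 0.56 against 0.01. The neural plate gene foxd4l1.1.S rose at least 16.8-fold from background, to signals of 532 and 415. Sox3.S rose by 3.89 and sox3.L by 3.34. The other 2, named after their values were seen, were sox2.L at 3.24 and the geminin gene gmnn.S at 1.01, and foxd3.L fell by 2.1 on the log2 scale. None of the 6 ventx symbols tested passed. The value of ventx2.1.S was 1.14, and ventx3.2.S had a signal of 138 on morpholino replicate 1, the library with mesoderm signal, and was at background on morpholino replicate 2 and both chordin and wnt3a arrays. With the replicate block 7 rose and 3 fell, and under spike-in scaling 4 rose and 10 fell. The fall of foxd3.L and the rise of gmnn.S were called without morpholino replicate 2 but lost without any 1 of the other 7 arrays. Without chordin and wnt3a replicate 2, 3 rose, and without morpholino replicate 1 limma called 0, with 9 at an unadjusted p under 0.05.

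**Figure D5:**
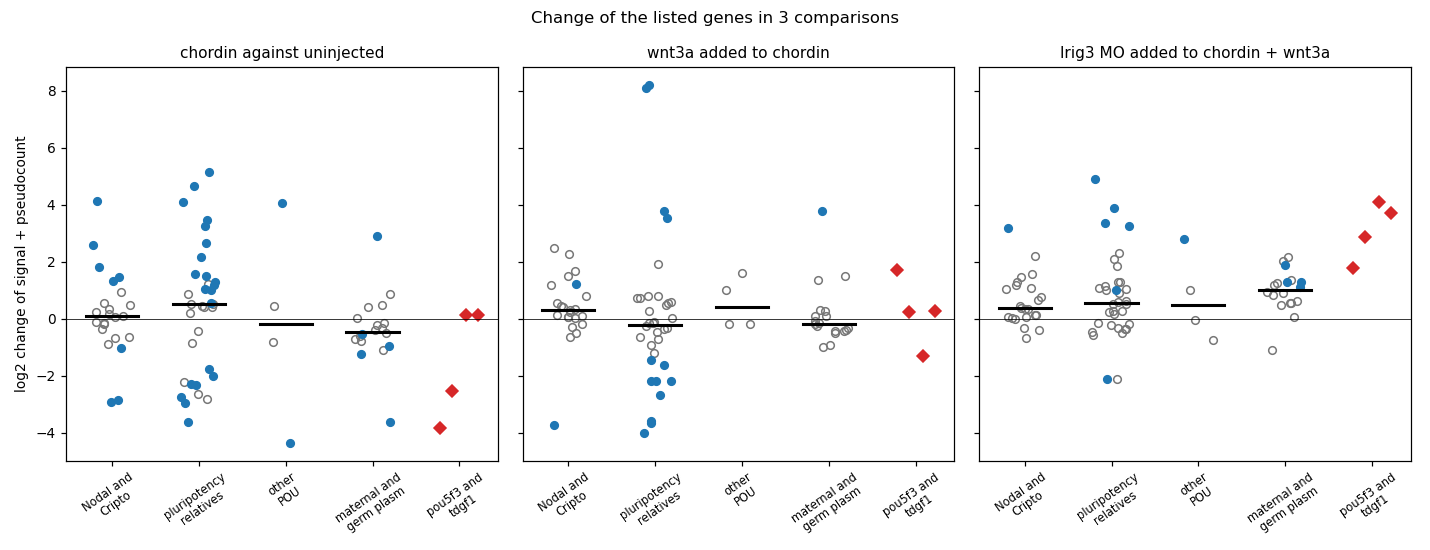
Log2 change of signal plus pseudocount (y axis) of each kept symbol of 4 gene lists and of the 4 kept pou5f3 and tdgf1 probe sets (red diamonds) in 3 comparisons (panels). Filled blue points had a limma adjusted p below 0.05, open points did not, and black bars are list medians, which in the morpholino comparison are 0.37, 0.56, 0.48 and 1.02 from left to right.

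Only 4 of 9 other POU-domain symbols with a probe set passed the filter. With chordin the neural gene pou3f1.L rose at least 4.33-fold from background, to signals of 157 and 103, and pou2f3.L, known from epithelial cells, was at least 10.3-fold lower, from 455 and 160. Pou3f1.L rose again with the morpholino, by 2.79 (limma adjusted p = 0.0216), from 81.6 and 151.9 to 742 and 864. With wnt3a added 0 of the 4 were called, and 0 had an unadjusted p under 0.05. The pou2f3.L call was lost without either uninjected array and without chordin replicate 1, when 1 of the 4 was called. Without any 1 of the chordin and wnt3a or morpholino arrays limma called 0 in the morpholino comparison, with 1 to 3 at an unadjusted p under 0.05.

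Maternal and germ plasm genes were listed because Oct60 is known as a maternal message. Of 25 symbols with a probe set 18 passed. With chordin 1 rose and 4 fell, 5.56% and 22.2% against 19.1% and 12.9%. The germ-cell RNA-binding gene dazl.L rose at least 2.59-fold from background, and the falls of largest size were fbxo43.L, a meiotic cell cycle inhibitor gene, at -3.62, zar2.S at -1.23 and the oocyte kinase gene wee2.L at -0.96. The wee2.L call was lost with any 1 array left out. Without uninjected replicate 1 or either chordin array 0 rose and 1 fell, and without uninjected replicate 2 or either chordin and wnt3a array 1 rose and 2 fell. Under spike-in scaling 2 rose and 1 fell. With wnt3a added grip2.L rose at least 8.00-fold from background and no other passed. Without chordin and wnt3a replicate 2 limma called 0 of the 18, with 2 at an unadjusted p under 0.05, and without morpholino replicate 2 it called 2.

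With the morpholino 4 of the 18 maternal genes rose and 0 fell, 22.2% against 2.62% of all symbols, and the median was 1.02 against 0.01. The list was drawn up with earlier results of these data known, so this share is a description. Wee2.L rose by 1.87, from signals of 30.8 and 23.8, the second at background, to 115 and 112. The oocyte kinase gene mos.L rose by 1.29 and the oocyte linker histone gene h1-8.S by 1.27, and the fourth, named after its value was seen, was the egg coat gene zp2.L at 1.12. The calls of wee2.L, mos.L and zp2.L were lost with any 1 array left out. Germ plasm genes did not pass, with ddx4.L at 0.07, ddx25.L at 0.83, dazl.L at 0.92 and grip2.L at -1.09. Beside them pou5f3.3.L had its difference of 4.09. The median of these 18 fell to 0.11 under spike-in scaling, when 0 rose and 1 fell. Without any 1 of the uninjected or chordin arrays 1 rose. Limma called 0 without chordin and wnt3a replicate 1, without its replicate 2 and without morpholino replicate 1, with 4, 6 and 11 at an unadjusted p under 0.05.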

How the data were processed

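The authors deposited 1 signal intensity per probe set and array on a linear scale for 32635 probe sets, made with MAS5 per the submitters' processing notes (version not given in the sources used here). Biotin was built into the RNA as it was amplified in vitro, per the labels' protocols. No intensity was 0 or below, and no further scaling was applied. The 96 manufacturer controls were left out of tests. Limma 3.58.1 in R 4.3.3 fitted log2(signal + 5.22), the 10th percentile of all signals, to all 8 arrays as group means (eBayes with trend and robust, 4 residual degrees of freedom), with Benjamini-Hochberg adjustment over 22000 probe sets and calls at an adjusted p below 0.05. The number of arrays limits the precision, and with 2 arrays on each side the smallest p an exact permutation test allows is 0.333.

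An "at least" fold sets the brighter group against the higher of background and own signal on each array of a group wholly at background. Names came from the platform annotation, updated by Entrez number through RefSeq (Xenopus_laevis_v10.1, 15394 matched), and 15495 probe sets had 1 symbol, 279 several and 16765 none. Each symbol in a list is its brightest kept probe set. Every pou5f3 and tdgf1 probe set is named, with the 5 symbols most correlated with each kept one and, per list and comparison, up to 3 called symbols with the largest rise and fall. Other symbols named are background to these. The members and lists were chosen with earlier results of these data known. Deviations of same-numbered arrays from their group means had correlations of 0.171 to 0.505 over the 6 pairs of groups, so the replicate numbers were taken to pair the arrays, and the replicate block is given where it changes a call. The script was tested on simulated data.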

Additional observations from a re-analysis of the deposited data

How the results depend on the processing

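Pou5f3.1.L and pou5f3.2.L were called lower with chordin under all alternatives run: pseudocounts of 16 and 1, no filter, quantile normalization, spike-in scaling, the replicate block, eBayes without trend and robust, each array left out and, added after seeing the data, the 4 uninjected and chordin arrays alone, which gave 6723 called probe sets. Pou5f3.3.L could not be fitted without either morpholino array, since it then failed the filter. Counts of called probe sets moved most in the morpholino comparison, from 1077 to 3289 with the replicate block and 5577 under spike-in scaling, and lay between 0 and 428 with 1 array left out (0 without morpholino replicate 1, with 3928 at an unadjusted p under 0.05). With wnt3a added the count of 1280 was 2031 with the replicate block and 370 to 1352 with 1 array left out, and with chordin 6445 became 2138 to 6508. For gene lists, with the replicate block 5 Nodal pathway genes were called with wnt3a added, and 2 Nodal pathway and 10 pluripotency genes in the morpholino comparison. Under spike-in scaling the morpholino counts were 2 Nodal pathway, 14 pluripotency and 1 maternal, and 3 maternal genes were called with chordin. With 1 array left out the counts with chordin were 4 to 8 Nodal pathway, 13 to 23 pluripotency, 1 to 2 other POU and 1 to 5 maternal genes. With wnt3a added they were 0 to 2, 7 to 14, 0 to 0 and 0 to 2, and in the morpholino comparison 0 to 2, 0 to 8, 0 to 1 and 0 to 3. The replicate block changed no other call of these genes or count by over 1.5 times. The cause of these shifts was not tested, beyond the smaller number of arrays. Signals under about 20 to 30 are within the background of negative controls and carry no order.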
